A study of Mus musculus with 6 samples.

Results

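RAW 264.7 macrophages grown on a CaP-coated zinc alloy with manganese and lithium, labelled CaP Zn0.8Mn0.1Li, were compared with the same cells on CaP-coated plain zinc, labelled CaP Zn (CaP is the usual short form of calcium phosphate). The comparison takes 4 of the 6 libraries of the series, 2 for each alloy, chosen by their treatment labels. RAW 264.7 is a macrophage line from a mouse tumour induced by a leukaemia virus, so all libraries come from a single transformed line and hold none of the other cells found around an implant. Both groups were kept on their scaffold for 3 days and lysed in TRIzol, and polyadenylated RNA was sequenced. The numbers 0.8 and 0.1 are those in the alloy names, whose unit the labels do not give. The zinc and the coating are common to both groups, manganese and lithium enter together, and cells without a scaffold were not analysed here. The series title concerns how these alloys bear on macrophage polarization and on the joining of implant and bone.

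Zinc inside a cell is buffered by metallothioneins, small cysteine-rich proteins whose genes are switched on by the zinc sensor MTF1 through metal response elements in their promoters. Zinc transporters of the ZnT family move the metal out of the cytosol and those of the ZIP family bring it in, manganese uses several ZIP and iron carriers, and lithium inhibits the kinase GSK3 and inositol phosphatases. Macrophages are often described between an inflammatory state (M1) and a repair-associated state (M2), and they act on bone through cytokines, chemokines, osteopontin and proteases.

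The CaP Zn libraries held 17709290 and 15874516 counts, the CaP Zn0.8Mn0.1Li libraries 16993937 and 16345256, and each detected 18334 to 18576 genes. Values below are CPM, counts divided by the library total and scaled by TMM, a factor that equalizes the bulk of genes, and 3 counts correspond to 0.162 to 0.192 CPM. Log2 CPM of library pairs correlated across genes at r = 0.9872 to 0.9912, and genes are not independent replicates. The highest of these values joined CaP Zn replicate 2 with CaP Zn0.8Mn0.1Li replicate 1, libraries of different alloys. Mitochondrially encoded genes took 1.82% to 2.06% of counts. The 26 macrophage identity genes of the list, 22 of which passed the filter on low counts, summed to 13083 to 18230 CPM. Lyz2, a macrophage marker, was alone at 9217 to 13877 CPM. Of the 31 markers of osteoblasts and fibroblasts, endothelium, T cells, B cells, neutrophils and epithelium, 29 failed the filter on low counts, and the exceptions were Runx2 (13.5 to 17.1 CPM) and the neutrophil gene S100a8 (0.702 to 2.18 CPM). Nothing in the labels says that the 2 libraries of an alloy came from separate cultures, so a p-value here measures only how these 4 libraries spread, and that spread may be technical.

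No gene differed between the alloys at an adjusted p under 0.05. edgeR's quasi-likelihood test on the 4 libraries covered 12835 genes with 2 residual degrees of freedom, and 0 (0%) passed with Benjamini-Hochberg adjustment. Unadjusted p under 0.05 was reached by 653 genes (5.09%), of which 346 (2.7%) were higher and 307 (2.39%) lower on CaP Zn0.8Mn0.1Li. The lowest adjusted p was 0.0962, for Csf3. The same 4 libraries gave 12 genes at an adjusted p under 0.05 by DESeq2, 0 by limma-voom (676 at an unadjusted p under 0.05) and 3 by edgeR without robust squeezing. In the text that follows, "higher" or "lower in both libraries" means that the libraries of the alloys did not overlap, which is a description and no test, because an exact permutation test of 2 against 2 libraries cannot go below 0.333 two-sided.

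Non-overlap is common in these data. Both CaP Zn0.8Mn0.1Li libraries lay above both CaP Zn libraries in 2140 of 12835 genes (16.7%) and below them in 2139 genes (16.7%), 4279 (33.3%) in all. With library totals alone in place of TMM, 1490 genes were above and 2825 below, and the median log2 fold change over all tested genes shifted from -0.000303 to -0.0434. Counts of non-overlapping genes in a list are therefore read against 16.7% in each direction. Large differences are few. Among the 9674 genes with a mean of at least 5 CPM, the group means differed over 1.5-fold in 45 genes. As large a difference was found in 202 genes between the CaP Zn libraries and in 75 between the CaP Zn0.8Mn0.1Li libraries. Means of 2 libraries vary less than single libraries, so the 45 cannot be set directly against the 202 and the 75. Of those 45 genes, 32 were higher on CaP Zn0.8Mn0.1Li (28 without overlap) and 13 lower (12 without overlap). Of the 179 genes named by rule whose libraries did not overlap, 97 had a log2 fold change that moved by over 1.5 times when some library was left out, 72 of 179 for CaP Zn replicate 1.

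**Figure D1:**
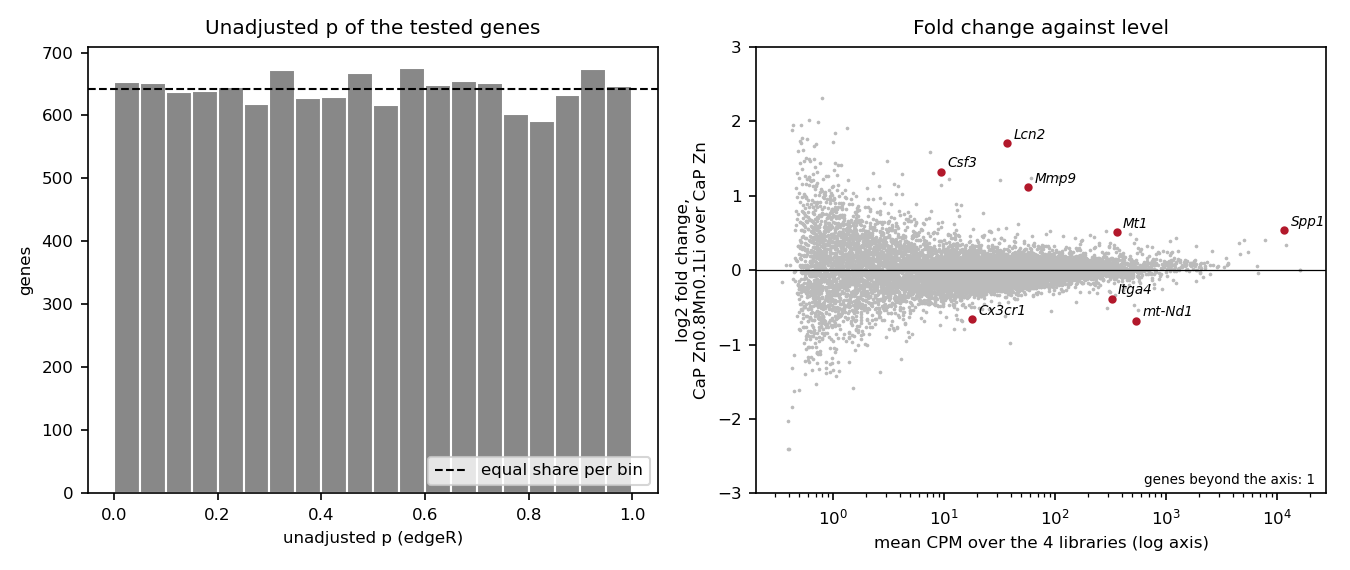
Left, number of tested genes in each bin of unadjusted edgeR p, 0.05 wide, with the dashed line at an equal share per bin. Right, log2 fold change of CaP Zn0.8Mn0.1Li over CaP Zn against mean CPM of the 4 libraries on a log axis, each point a gene and 8 genes of the text in red. The lowest p bin held 653 genes, close to the equal share, and Csf3, Lcn2 and Mmp9 lay above the bulk of genes of their level.

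Of DESeq2's 12 calls, 9 were higher on CaP Zn0.8Mn0.1Li. Among them were Spp1 (osteopontin, a phosphoprotein of bone matrix), the lysosomal proteases Ctsd and Ctsl, Mt1 (metallothionein) and the nuclear long non-coding RNA Neat1. The rest were the stress transcription factor gene Ddit3, the myeloid receptor gene Lilr4b, the autophagy gene Vmp1 and the integrin subunit gene Itgam. The other 3 were lower, namely the mitochondrial genes mt-Cytb and mt-Nd2 and the integrin subunit gene Itga4. DESeq2's adjusted p ran from 0.000446 for Spp1 to 0.0492. Neat1 and Vmp1 were singled out after their values were seen. Neat1 was at 236 and 236 CPM on CaP Zn against 291 and 391 CPM on CaP Zn0.8Mn0.1Li, and Vmp1 at 123 and 137 against 178 and 173 CPM. In edgeR's test the adjusted p of both was 0.407.

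The 15 higher genes with the widest gap between the alloys, among tested genes with a mean of at least 5 CPM, included Csf3, Lcn2, Wfdc17 and Mmp9, which encode secreted proteins. Csf3 encodes granulocyte colony-stimulating factor, the growth factor that drives neutrophil production. It was at 5.34 and 5.45 CPM on CaP Zn and at 11.6 and 15.5 CPM on CaP Zn0.8Mn0.1Li, so that the lower alloy library was more than the higher zinc library and the zinc pair lay close together. The fold was 2.51 (log2 fold change 1.33 ± 0.20 SE, n = 2 per group, edgeR adjusted p = 0.0962). Left-out libraries moved its log2 fold change between 1.10 and 1.52. The gene lies at chr11:98701263-98703629 on the plus strand of GRCm38, the build that the positions in the files match.

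Lcn2, lipocalin 2, binds iron-carrying bacterial siderophores. It was at 14.9 and 20.3 CPM on CaP Zn against 41.2 and 72.9 CPM on CaP Zn0.8Mn0.1Li, a 3.26-fold difference of means with a wide spread between the alloy libraries (log2 fold change 1.70 ± 0.38 SE, edgeR adjusted p = 0.926). Wfdc17, a small secreted protein of the whey acidic protein family, was at 13.2 and 25.7 CPM against 43.6 and 46.0 CPM (2.32-fold). Mmp9, gelatinase B, degrades denatured collagen and collagen type IV. Its libraries were at 26.7 and 46.1 CPM on CaP Zn and at 73.8 and 82.9 CPM on CaP Zn0.8Mn0.1Li (2.17-fold, log2 fold change 1.12 ± 0.28 SE, edgeR adjusted p = 0.926). For Wfdc17 and Mmp9 the library CaP Zn replicate 1 was the lowest of the 4, and without it their log2 fold changes were 0.80 and 0.76. Of the 5 neutrophil markers, S100a9, Ly6g, Mpo and Elane had 0 counts in all 4 libraries and S100a8 had 13, 16, 36 and 16 counts in the order of CaP Zn replicates 1 and 2 and CaP Zn0.8Mn0.1Li replicates 1 and 2. In bulk RNA of this single line, fewer cells that express a gene and less of its RNA per cell cannot be told apart.

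Other genes with a wide gap between the groups were a chemokine, receptors, enzymes and pseudogenes. Ccl2, the chemokine that recruits monocytes, was at 10.3 and 10.5 CPM on CaP Zn and 15.4 and 18.8 CPM on CaP Zn0.8Mn0.1Li (1.65-fold). Qpct, the glutaminyl cyclase that modifies the amino end of several chemokines, was at 8.04 and 12.1 against 18 and 18.8 CPM (1.84-fold). Procr, the endothelial protein C receptor, was at 4.10 and 4.17 against 6.48 and 6.87 CPM (1.61-fold). Each of these was chosen for its wide gap, so the separation of the groups is no result. The edgeR adjusted p lay between 0.407 and 0.709. Klra2, a member of the Ly49 receptor family, was at 9.28 and 9.88 against 15.6 and 18 CPM, and whether related genes share its reads was not tested. Rps26-ps1, Hist1h2al and Gm14328 are annotated as pseudogenes, and near-identical genes make their counts uncertain. The remaining genes of the 15 with the widest gap upward were Slc16a4, Cox6a2, AC154187.2 and 3110056K07Rik, with log2 fold changes of 0.49, 0.49, 0.58 and 0.79.

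The 15 genes with the widest gap downward held transcription factors and a chemokine receptor. Cx3cr1, the fractalkine receptor of monocytes and resident macrophages, was at 24.8 and 19.2 CPM on CaP Zn and 13.2 and 14.7 CPM on CaP Zn0.8Mn0.1Li, 1.58-fold lower on the alloy with a log2 fold change of -0.66 ± 0.16 SE (edgeR adjusted p = 0.407). Cebpa, a transcription factor of myeloid differentiation, was at 16.6 and 14.8 against 9.39 and 11.2 CPM, and Klf2, a transcription factor that restrains myeloid activation, was at 11.3 and 11.2 against 8.12 and 8.34 CPM. All 4 values of Klf2 sat in tight pairs, 1.37-fold apart. Maml1, a coactivator of Notch signalling, was at 20.3 and 21.2 against 15.1 and 15.3 CPM. Slc33a1, the acetyl-CoA carrier of the endoplasmic reticulum, was at 14.0 and 14.4 against 10.1 and 10.4 CPM. Bag5, a cochaperone of Hsp70, was at 20.2 and 14.6 against 10.5 and 11.4 CPM. Wdr81, an endosomal trafficking protein, was at 32.9 and 28.3 against 20.7 and 22.1 CPM. The list also held Grtp1 (1.61-fold lower), Angptl2, Fam118b, Tmem198b, the pseudogenes Gm3650 and Gm10110, and the mitochondrial genes mt-Nd1 and mt-Tc.

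**Figure D2:**
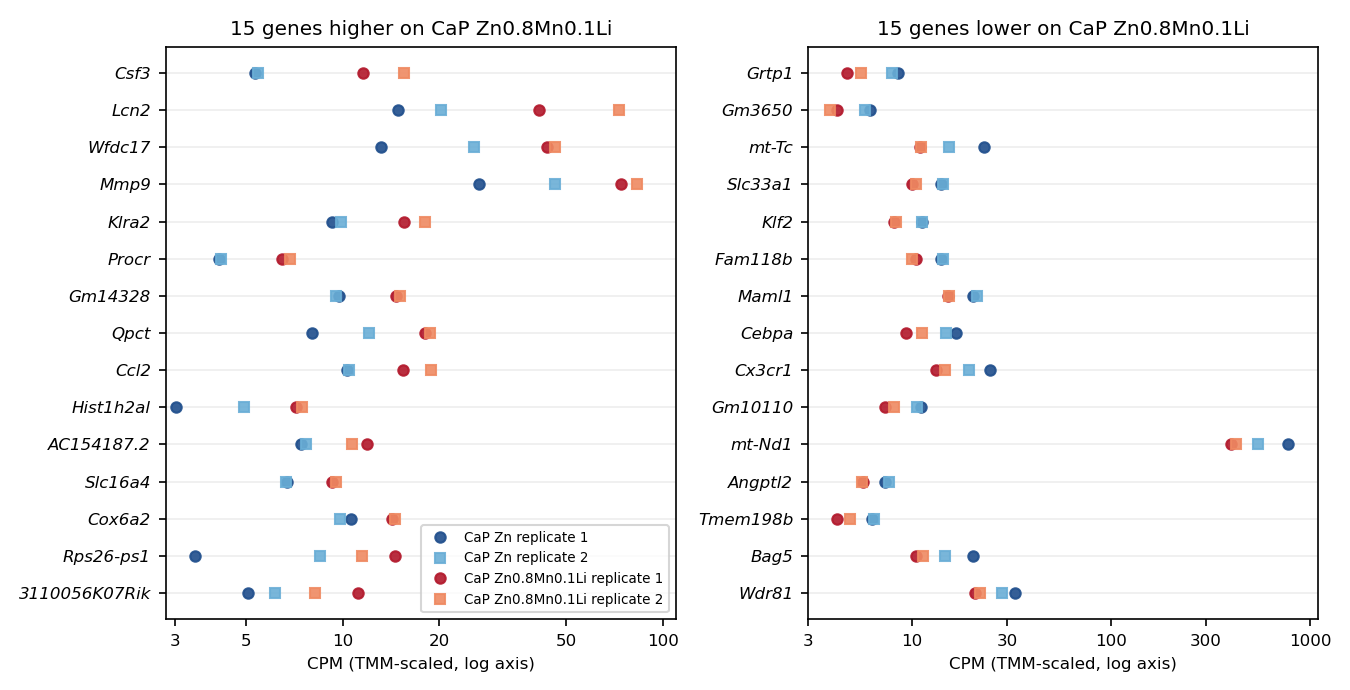
CPM on a log axis of the 15 genes with the widest gap in each direction, among tested genes with a mean of at least 5 CPM. Each symbol is a library, blue for CaP Zn and red for CaP Zn0.8Mn0.1Li, with circles for replicate 1 and squares for replicate 2. Colours do not overlap in any row because rows were chosen for that, with Csf3 going from 5.34 and 5.45 to 11.6 and 15.5 CPM.

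Metallothionein transcripts were higher on the manganese-lithium alloy, while zinc transporter genes showed small differences. Mt1 was at 277 and 320 CPM on CaP Zn and at 371 and 480 CPM on CaP Zn0.8Mn0.1Li, a 1.42-fold difference (log2 fold change 0.51 ± 0.12 SE, n = 2, edgeR adjusted p = 0.407). The order of the 4 libraries kept both alloys apart, with the gap between the groups smaller than the gap inside the alloy pair. Mt2 was read from 8, 11, 31 and 39 counts, that is 0.432 and 0.706 CPM against 1.88 and 2.39 CPM (log2 fold change 1.92 ± 0.45 SE, edgeR adjusted p = 0.407). Per length, Mt2 was far below Mt1, at a mean of 0.956 and 3.59 FPKM on the alloys against 237 and 337 FPKM. Left-out libraries moved Mt1 between 0.31 and 0.68 and Mt2 between 1.58 and 2.29 on the log2 scale. Mtf1, the zinc sensor, was at 26.7 and 28.4 against 27.9 and 26.4 CPM, overlapping.

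The promoters of the metallothionein pair are shown because both genes are classical targets of MTF1. The 250 bases before each RefSeq gene start (GRCm38.p6, plus strand) lie at chr8:94178839-94179088 for Mt1 and chr8:94172368-94172617 for Mt2, and capitals mark matches on either strand to TGCACNC or TGCGCNC, the core of the metal response element.
Mt1: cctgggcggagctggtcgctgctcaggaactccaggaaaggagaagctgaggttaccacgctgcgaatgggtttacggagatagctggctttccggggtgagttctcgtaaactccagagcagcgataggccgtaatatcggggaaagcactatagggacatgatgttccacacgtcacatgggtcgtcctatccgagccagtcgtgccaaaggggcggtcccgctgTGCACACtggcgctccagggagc
Mt2: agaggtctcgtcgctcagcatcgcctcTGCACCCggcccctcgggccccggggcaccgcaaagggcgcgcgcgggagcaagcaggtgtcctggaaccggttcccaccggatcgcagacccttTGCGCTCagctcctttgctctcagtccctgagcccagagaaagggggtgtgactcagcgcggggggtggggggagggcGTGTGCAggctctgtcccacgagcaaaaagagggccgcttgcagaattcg
Mt1 held 1 match and Mt2 held 3, and 23.8% of the 27025 genes in the promoter table held at least 1. The search ended at the RefSeq start, so bases after it were not searched. Elements there would be missed, so 1 against 3 matches does not compare the promoters as wholes. A match describes letters and not binding.

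Of the 6 ZnT exporter genes tested, 0 were higher and 1 lower in both libraries, and their median log2 fold change was -0.03 (from -0.10 without CaP Zn0.8Mn0.1Li replicate 1 to 0.0037 without CaP Zn0.8Mn0.1Li replicate 2). Slc30a1, the exporter of the plasma membrane and an MTF1 target, was at 27.0 and 31.1 CPM on CaP Zn and 31.4 and 27.0 CPM on CaP Zn0.8Mn0.1Li, with no separation of the groups. Its log2 fold change was 0.01 ± 0.12 SE. Of 13 ZIP importers, 3 were higher and 2 lower, with a median of 0.04 (from -0.04 without CaP Zn replicate 2 to 0.08 without CaP Zn0.8Mn0.1Li replicate 2). Slc39a4 was at 1.89 and 1.73 against 2.48 and 2.45 CPM, and Slc39a13 at 36.6 and 41.8 against 43.8 and 43.4 CPM. The 11 tested genes of manganese transport and use had a median of 0.02 (from -0.03 without CaP Zn0.8Mn0.1Li replicate 2 to 0.08 without CaP Zn0.8Mn0.1Li replicate 1), with 3 higher and 2 lower. Slc11a1, the phagosomal carrier of iron and manganese, was at 103 and 118 against 130 and 139 CPM. Sod2, the manganese-dependent superoxide dismutase of mitochondria, was at 151 and 167 against 175 and 174 CPM, a log2 fold change of 0.13 ± 0.08 SE.

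Transcripts of the direct lithium targets and the GSK3 axis differed little, and RNA levels do not measure the inhibition of these enzymes. Of 14 tested members of the GSK3 axis and the lithium-sensitive phosphatases, 2 were higher and 3 lower in both libraries, with a median log2 fold change of 0.01 (from -0.05 without CaP Zn replicate 2 to 0.04 without CaP Zn replicate 1). Gsk3b read 99.4 and 100 CPM on CaP Zn and 97.0 and 91.0 CPM on CaP Zn0.8Mn0.1Li, and Gsk3a read 69.7 and 69.0 against 77.2 and 72.9 CPM. Inpp1, an inositol polyphosphate phosphatase inhibited by lithium, was at 12.7 and 9.43 against 9.21 and 7.91 CPM. Of 18 Wnt and beta-catenin target genes, 6 passed the filter on low counts, with 1 higher and 0 lower and a median of 0.10 (from 0.05 without CaP Zn replicate 1 to 0.09 without CaP Zn0.8Mn0.1Li replicate 1). Myc, the proliferation factor, was at 13.4 and 16.7 against 18.2 and 16.0 CPM, overlapping.

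Polarization markers gave a split result. In the M2 list, 14 of 25 genes were tested, and 7 were higher and 1 lower in both CaP Zn0.8Mn0.1Li libraries, against 16.7% of all genes in each direction, with a median log2 fold change of 0.25 (0.12 to 0.30 with a library left out). Clec10a, a galactose-type lectin receptor, was at 5.99 and 7.95 CPM on CaP Zn and 11.2 and 10.4 CPM on CaP Zn0.8Mn0.1Li. Il1rn, the interleukin 1 receptor antagonist, was at 35.1 and 33.0 against 40.9 and 41.3 CPM. Cd36, a scavenger receptor for oxidized lipids, was at 195 and 180 against 223 and 231 CPM, and the scavenger receptor gene Msr1 at 114 and 98.9 against 116 and 127 CPM. These 4 genes were picked from the list because their libraries did not overlap, so their separation is no result. The difference was 1.56-fold for Clec10a and less for the others. Of the 14 tested members, 10 were above 0 and 4 below. Classical M2 genes such as Mrc1, Chil3, Retnla and Il10 failed the filter on low counts, and Arg1 and Ccl22, higher in both libraries, had means under 1 CPM on CaP Zn.

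The M1 list had a median of -0.03 over 13 tested genes (from -0.10 without CaP Zn0.8Mn0.1Li replicate 1 to 0.05 without CaP Zn replicate 2), with 3 higher and 2 lower. Nos2, inducible nitric oxide synthase, was at 112 and 107 CPM on CaP Zn and 108 and 107 CPM on CaP Zn0.8Mn0.1Li. Tnf was at 113 and 150 against 154 and 147 CPM, Ptgs2 (cyclooxygenase 2) at 141 and 163 against 150 and 143 CPM, and Il1b at 5.13 and 5.97 against 7.21 and 5.09 CPM. All of these overlapped, and the log2 fold change of Nos2 was -0.03 ± 0.08 SE. The costimulatory ligand genes Cd86 and Cd80 were higher, Cd86 at 2.27 and 2.44 against 4.48 and 4.23 CPM (1.85-fold, edgeR adjusted p = 0.682) and Cd80 at 11.9 and 10.4 against 14.3 and 14.0 CPM. Socs3, a feedback inhibitor of cytokine signalling, was at 15 and 20.3 against 21.2 and 22.8 CPM. Of the 2 lower members, Cxcl10 fell most, at 6.05 and 3.53 against 2.60 and 3.01 CPM. Its log2 fold change was -0.78, and -0.33 without CaP Zn replicate 1.

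Among 14 tested cytokines and colony-stimulating factors, 6 were higher and 1 lower in both libraries, with a median log2 fold change of 0.19 that was 0.04 without CaP Zn replicate 1. Beside Csf3, Ebi3, a subunit of interleukins 27 and 35, was at 34.8 and 34.4 CPM on CaP Zn and 43.6 and 42.7 CPM on CaP Zn0.8Mn0.1Li. Tgfb1, transforming growth factor beta 1, was at 183 and 222 against 225 and 234 CPM. Tnfsf13b, the B cell factor BAFF, was the member that was lower, at 2.59 and 2.44 against 1.94 and 2.15 CPM. Osm, oncostatin M, overlapped, at 14.7 and 21.3 against 18.5 and 17.1 CPM.

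The chemokine list divided by member. Of 12 tested CC and CXC chemokines, 6 were higher and 3 lower (median 0.24, 0.36 without CaP Zn replicate 2, and 0.12 without CaP Zn replicate 1 or without CaP Zn0.8Mn0.1Li replicate 1). Beside Ccl2, the monocyte attractants Ccl7 and Ccl6 were higher, Ccl7 at 0.378 and 1.15 against 1.39 and 1.29 CPM and Ccl6 at 2.21 and 3.40 against 5.75 and 5.58 CPM (2.04-fold, edgeR adjusted p = 0.538). Ccl2, Ccl7, Ccl6 and Wfdc17 all lie on chromosome 11, Ccl6 at chr11:83587882-83593087 and Wfdc17 at chr11:83703991-83706268. Cxcl10, the interferon-induced ligand of CXCR3, was lower, at 6.05 and 3.53 CPM on CaP Zn and 2.60 and 3.01 CPM on CaP Zn0.8Mn0.1Li (1.72-fold), and its log2 fold change of -0.78 was -0.33 without CaP Zn replicate 1.

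Among integrin genes, Itgam, Itgb2 and Itgb7 read higher and Itga4 lower. Itgam encodes the alpha chain and Itgb2 the beta chain of complement receptor 3, with which myeloid cells attach and phagocytose. Itgam was at 97.5 and 104 CPM on CaP Zn and 140 and 136 CPM on CaP Zn0.8Mn0.1Li, a 1.37-fold difference that was large against the spread of either pair (log2 fold change 0.46 ± 0.08 SE, edgeR adjusted p = 0.266, and 0.41 to 0.50 with a library left out). Itgb2 was at 248 and 306 against 351 and 361 CPM. Itgb7, the beta chain that pairs with the alpha 4 chain, was at 13.9 and 19.8 against 25.1 and 32.1 CPM (1.71-fold). Itga4, that alpha chain, was lower, at 381 and 355 against 293 and 272 CPM (1.30-fold, log2 fold change -0.38 ± 0.09 SE, edgeR adjusted p = 0.407). Of all 19 tested integrins and activators, 7 were higher and 5 lower, with a median of -0.03 (from -0.05 without CaP Zn replicate 1 to 0.03 without CaP Zn0.8Mn0.1Li replicate 2).

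Among 17 tested matrix proteins, proteases and inhibitors, 8 were higher and 2 lower, with a median of 0.11 (from 0.08 without CaP Zn replicate 1 to 0.27 without CaP Zn replicate 2). Spp1, osteopontin, had the highest FPKM of them, and its level was 9183 and 9778 CPM on CaP Zn against 12691 and 14954 CPM on CaP Zn0.8Mn0.1Li, a 1.46-fold difference of means (log2 fold change 0.54 ± 0.20 SE, edgeR adjusted p = 0.926, DESeq2 adjusted p = 0.000446). Its libraries did not overlap, and the tools placed it on different sides of the threshold. Plaur, the urokinase receptor, was at 27.6 and 33.0 against 37.4 and 42.5 CPM, and the membrane protease gene Adam8 at 311 and 342 against 377 and 425 CPM.

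The osteoclast list, genes of the bone-resorbing cell that RAW 264.7 can form, gave 4 higher and 5 lower of 19 tested, with a median of 0.0029 (from -0.07 without CaP Zn replicate 1 to 0.17 without CaP Zn replicate 2). Dcstamp, needed for the fusion of osteoclast precursors, was at 7.39 and 8.08 CPM on CaP Zn and 5.94 and 5.46 CPM on CaP Zn0.8Mn0.1Li. Traf6, the adaptor of the receptor RANK, was at 31.5 and 30.9 against 25.6 and 24.2 CPM. Tcirg1, a proton pump subunit, was higher, at 344 and 413 against 444 and 447 CPM. Acp5 and Ctsk, the resorption enzymes, overlapped, Acp5 at 39.0 and 52.3 against 51.7 and 37.3 CPM and Ctsk at 67.6 and 106 against 121 and 96.9 CPM. Of the secreted factors that promote bone or vessels, 12 of 26 were tested, with 1 higher, 0 lower and a median of 0.02 (from -0.14 without CaP Zn replicate 1 to 0.20 without CaP Zn replicate 2). Vegfa, vascular endothelial growth factor, was at 68.4 and 84.9 against 82.7 and 75.9 CPM.

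Inhibitory and paired receptors of myeloid cells were mostly on the higher side. Of 21 tested, 16 had a log2 fold change above 0 (49.9% of all genes), 8 were higher and 0 lower in both libraries, and the median was 0.15 (0.06 without CaP Zn replicate 1 or without CaP Zn0.8Mn0.1Li replicate 1). Of those 8, Clec4d, Clec4e and Clec4n are activating lectins and Tyrobp is an activating adaptor. Lilr4b was at 149 and 153 CPM on CaP Zn and 193 and 206 CPM on CaP Zn0.8Mn0.1Li, and Lilrb4a at 146 and 149 against 171 and 189 CPM. These are near-identical paralogs, so their counts are not independent. Clec4n, dectin 2, which binds fungal mannans, was at 1.67 and 3.21 against 5.33 and 6.5 CPM. Pirb was at 0.162 and 0.770 against 1.94 and 1.29 CPM, the lowest of these at 3 counts.

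Among 8 tested complement genes, Cfp (properdin, which stabilizes the alternative pathway convertase) was at 268 and 280 CPM on CaP Zn and 342 and 341 CPM on CaP Zn0.8Mn0.1Li, and C5ar1, the receptor of C5a, was lower at 10.1 and 10.7 against 7.81 and 8.83 CPM. Of 19 tested Toll-like receptors and adaptors, 2 were higher and 7 lower in both libraries, with a median of -0.08 (from -0.04 without CaP Zn replicate 1 to -0.18 without CaP Zn replicate 2). Those lower were Tlr2, Tlr4, the adaptor Tirap, the kinase Irak4, and 3 endosomal receptors of nucleic acids. Tlr7 was at 8.37 and 5.00 against 3.27 and 4.17 CPM, Tlr9 at 4.91 and 3.46 against 2.12 and 2.94 CPM, and Tlr13 at 3.62 and 2.76 against 2.24 and 2.09 CPM. Without CaP Zn replicate 1 the log2 fold change went from -0.85 to -0.43 for Tlr7 and from -0.73 to -0.45 for Tlr9. In 20 NF-kB subunits and feedback inhibitors, 4 were higher and 8 lower, with a median of -0.07 that ran from -0.09 without CaP Zn0.8Mn0.1Li replicate 1 to 0.0026 without CaP Zn replicate 2, and with Relb at 29.7 and 31.2 against 26.7 and 24.5 CPM and Zc3h12a, an RNase that limits cytokine transcripts, at 77.2 and 85.6 against 69.3 and 69.6 CPM. Nlrp3, the inflammasome sensor, was at 16.1 and 12.6 against 9.45 and 11.3 CPM, and Casp1 at 37.9 and 35.8 against 39.9 and 42.1 CPM.

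**Figure D3:**
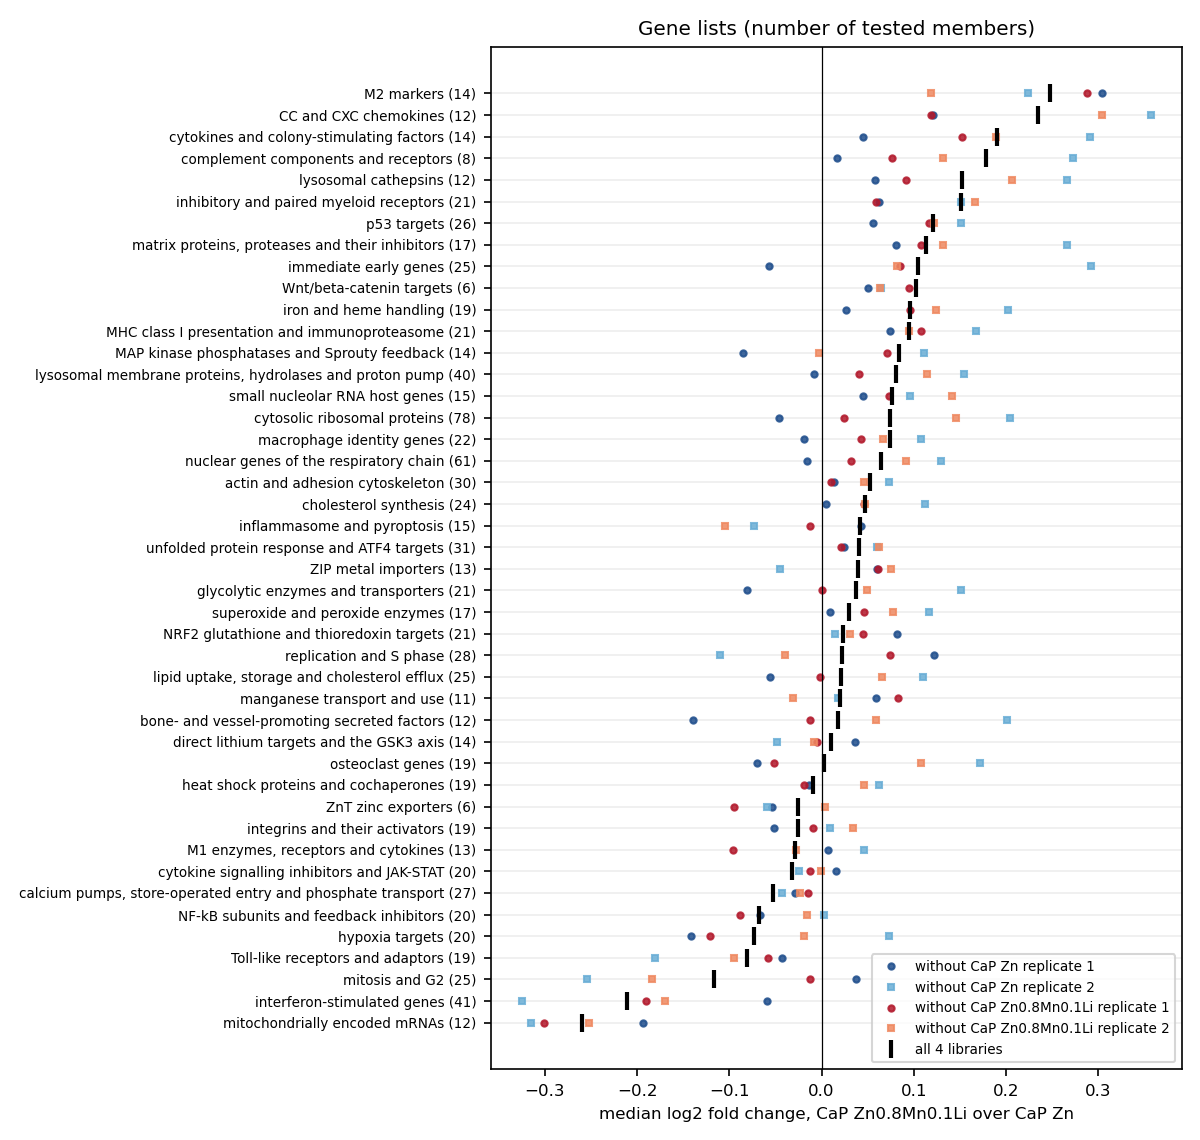
Median log2 fold change of each gene list with at least 5 tested members (number in brackets), CaP Zn0.8Mn0.1Li over CaP Zn. Black bars use all 4 libraries and coloured symbols leave out the library named. M2 markers lay highest at 0.25 and mitochondrially encoded mRNAs lowest at -0.26, and the symbols without CaP Zn replicate 1 (dark blue) and without CaP Zn replicate 2 (light blue) often lay on opposite sides of the bar.

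Interferon-stimulated genes mostly read lower on CaP Zn0.8Mn0.1Li, and the size of the difference rested on CaP Zn replicate 1. Type I interferon induces these antiviral genes through interferon-stimulated response elements in their promoters. Of 41 tested, 36 had a log2 fold change below 0 (50.1% of all genes), 18 were lower and 1 higher in both libraries, and the median was -0.21. Rtp4 was at 20.6 and 11.4 CPM on CaP Zn and at 10.5 and 9.88 CPM on CaP Zn0.8Mn0.1Li, Ifi44 at 140 and 81.0 against 73.9 and 77.7 CPM, and Oasl2, of the oligoadenylate synthetase family, at 9.45 and 5.84 against 5.21 and 4.66 CPM. CaP Zn replicate 1 was the high library in each, and CaP Zn replicate 2 lay just above the alloy pair. Without CaP Zn replicate 1, 25 of 41 members were below 0 and the list's median was -0.06, Rtp4's log2 fold change was -0.16 and Ifi44's was -0.10. Without CaP Zn replicate 2 the median was -0.32. The member that was higher, Gbp7, was at means of 0.532 and 1.28 CPM.

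Promoters of Cxcl10 and of 2 listed genes are shown because they hold the core of that response element. Capitals mark GAAANNGAAA on either strand in the 250 bases before the RefSeq start (GRCm38.p6), at chr5:92348890-92349139 for Cxcl10, chr12:26456453-26456702 for Rsad2 and chr5:120777660-120777909 for Oas3, all on the minus strand and printed in the direction of the gene.
Cxcl10: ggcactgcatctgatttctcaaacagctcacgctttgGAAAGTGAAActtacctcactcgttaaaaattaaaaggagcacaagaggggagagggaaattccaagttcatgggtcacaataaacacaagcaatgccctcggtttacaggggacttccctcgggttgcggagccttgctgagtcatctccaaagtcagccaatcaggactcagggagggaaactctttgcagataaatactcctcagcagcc
Rsad2: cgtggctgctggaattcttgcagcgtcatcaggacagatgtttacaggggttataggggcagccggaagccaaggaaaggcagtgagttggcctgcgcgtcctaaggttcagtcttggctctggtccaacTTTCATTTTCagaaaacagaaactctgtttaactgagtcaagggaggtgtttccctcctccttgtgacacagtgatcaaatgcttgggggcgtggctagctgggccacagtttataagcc
Oas3: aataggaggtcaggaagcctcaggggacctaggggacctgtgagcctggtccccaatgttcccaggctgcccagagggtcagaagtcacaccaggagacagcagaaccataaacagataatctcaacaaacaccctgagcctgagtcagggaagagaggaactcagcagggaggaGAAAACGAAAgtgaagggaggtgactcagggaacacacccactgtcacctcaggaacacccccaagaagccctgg
The core was found in 11 of the 29 tested interferon-stimulated genes with an entry in the promoter table (37.9%), against 3.46% of all 27025 genes. Rsad2, viperin, was at 9.34 and 8.15 CPM on CaP Zn and 8.18 and 6.07 CPM on CaP Zn0.8Mn0.1Li, overlapping. Oas3, a sensor of double-stranded RNA, was at means of 241 and 203 CPM and was lower in both libraries. The log2 fold changes of members with and without the core overlapped, from -0.36 for Slfn5 to 1.26 for Gbp7 with the core and from -0.65 for Cmpk2 to -0.01 for Xaf1 without it.

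Most tested mRNAs of the mitochondrial genome, counted by gene, read lower on the manganese-lithium alloy. These encode subunits of respiratory complexes I, III, IV and V. Of 12 tested mRNAs, 11 had a log2 fold change below 0 (50.1% of all genes). In both libraries 7 were lower (16.7% of all genes) and 0 higher, with a median of -0.26 (-0.19 to -0.31 with a library left out). Of the 4 mRNAs given next, the complex I genes mt-Nd1 and mt-Nd2 differed most. mt-Nd1 was at 775 and 550 CPM on CaP Zn and 403 and 425 CPM on CaP Zn0.8Mn0.1Li (1.60-fold, log2 fold change -0.68 ± 0.14 SE, edgeR adjusted p = 0.407, and -0.41 without CaP Zn replicate 1). mt-Nd2 was at 399 and 296 against 234 and 257 CPM, and mt-Nd4 at 402 and 371 against 307 and 306 CPM. The complex III gene mt-Cytb was at 671 and 525 against 413 and 451 CPM. These 4 genes were picked from the list because both alloy libraries lay below both zinc libraries.

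The tested mitochondrial mRNA with the highest FPKM overlapped between alloys. mt-Co1, a catalytic subunit of complex IV, was at 15454 and 17206 CPM on CaP Zn and at 17355 and 15225 CPM on CaP Zn0.8Mn0.1Li, with a log2 fold change of -0.0035 ± 0.22 SE. The 13 listed mitochondrial mRNAs, mt-Co1 among them, summed to 19068 and 20218 CPM on CaP Zn. On CaP Zn0.8Mn0.1Li the sums were 19825 and 17779 CPM, so the groups overlapped. mt-Nd5 was at 1047 and 959 against 836 and 841 CPM, and mt-Nd6, which is transcribed from the other strand, at 268 and 257 against 225 and 226 CPM. All 8 tested mitochondrial tRNA genes were below 0 (50.1% of all genes), with 6 lower in both libraries (16.7% of all genes). Their median was -0.85 (-0.33 without CaP Zn replicate 1), and mt-Tc was at 22.9 and 15.3 against 11.0 and 11.1 CPM. Nuclear copies of mitochondrial sequence share reads with these genes, and Gm28438 on chromosome 1, an unprocessed pseudogene, was likewise lower (1.74-fold). Whether counting used strand is not given in the sources used here.

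Nuclear genes of the respiratory chain did not follow the mitochondrial ones. Of 61 tested, 52 were above 0 (49.9% of all genes), and 14 were higher and 0 lower in both libraries. The median was 0.06 (from -0.02 without CaP Zn replicate 1 to 0.13 without CaP Zn replicate 2). Atp5g1, a subunit of the ATP synthase ring, was at 31.7 and 42.6 CPM on CaP Zn and 63.3 and 50.2 CPM on CaP Zn0.8Mn0.1Li. Cytosolic ribosomal protein genes had 67 of 78 members above 0, but 5 higher (6.41%, under the 16.7% of all genes) and 0 lower in both libraries, and a median of 0.07 (from -0.05 without CaP Zn replicate 1 to 0.20 without CaP Zn replicate 2). Rpl35a was at 59.5 and 77.9 against 94.1 and 98.8 CPM. In these lists 30 of 61 and 43 of 78 genes belong to the shortest of 5 length classes of tested genes, in which CaP Zn replicate 1 read low.

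Antigen presentation by MHC class I and the immunoproteasome was on the higher side in small steps. Of 21 tested, 18 were above 0 (49.9% of all genes), and 12 were higher and 0 lower in both libraries. The median was 0.09 (from 0.07 without CaP Zn replicate 1 to 0.17 without CaP Zn replicate 2). Without CaP Zn replicate 1, 15 members were above 0 and 6 below. H2-D1 was at 728 and 858 CPM on CaP Zn and 938 and 916 CPM on CaP Zn0.8Mn0.1Li, H2-K1 at 106 and 115 against 118 and 134 CPM, and H2-Q4 at 47.4 and 55.1 against 61.8 and 67.4 CPM. These class I heavy chain genes are close in sequence and their counts can share reads. Calr, the chaperone calreticulin of the peptide-loading complex, was at 1402 and 1947 against 2127 and 2056 CPM.

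Among 12 tested cathepsins, 4 were higher and 1 lower (median 0.15, from 0.06 without CaP Zn replicate 1 to 0.27 without CaP Zn replicate 2). Ctsl was at 909 and 968 CPM on CaP Zn and 1223 and 1239 CPM on CaP Zn0.8Mn0.1Li (1.31-fold), Ctsd at 936 and 1182 against 1428 and 1436 CPM (1.35-fold), and Ctsb at 2099 and 2666 against 3008 and 2667 CPM. Of 40 membrane proteins, hydrolases and pump subunits, 14 were higher and 3 lower, with a median of 0.08 (from -0.0082 without CaP Zn replicate 1 to 0.15 without CaP Zn replicate 2). Gpnmb, a glycoprotein of lysosomes and phagosomes, was at 250 and 353 against 390 and 375 CPM, and Cd63 at 344 and 374 against 421 and 414 CPM.

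Iron handling genes included both ferritin chains. Of 19 tested, 8 were higher and 2 lower (median 0.10, from 0.03 without CaP Zn replicate 1 to 0.20 without CaP Zn replicate 2). Fth1, the heavy chain, was at 5794 and 7786 CPM on CaP Zn and 8785 and 9140 CPM on CaP Zn0.8Mn0.1Li, and Ftl1, the light chain, at 3368 and 4610 against 5272 and 5021 CPM. CaP Zn replicate 1 was again the lowest library. Cp, the ferroxidase ceruloplasmin, was at 25.2 and 30.9 against 39.1 and 36.3 CPM. Hmox1, heme oxygenase 1, overlapped, at 179 and 214 against 223 and 210 CPM. Among antioxidant genes, Gstp1 was at 23.5 and 20.6 against 36.3 and 26.7 CPM and Prdx5 at 253 and 297 against 337 and 350 CPM, while the 21 tested NRF2 targets as a list had 6 higher, 3 lower and a median of 0.02 (from 0.02 without CaP Zn replicate 2 to 0.08 without CaP Zn replicate 1).

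Of 31 tested targets of the unfolded protein response and ATF4, 12 were higher and 5 lower, with a median of 0.04 (from 0.02 without CaP Zn0.8Mn0.1Li replicate 1 to 0.06 without CaP Zn0.8Mn0.1Li replicate 2). Ddit3 (CHOP), a transcription factor of that response, was at 156 and 191 CPM on CaP Zn and 258 and 224 CPM on CaP Zn0.8Mn0.1Li (1.39-fold, edgeR adjusted p = 0.407), and Ppp1r15a, which restores translation, was at 59.5 and 76.3 against 89.1 and 82.1 CPM. In the p53 list, 12 of 26 were higher and 3 lower (median 0.12, and 0.06 without CaP Zn replicate 1). Gadd45a was at 19.9 and 23.3 against 32.2 and 29.8 CPM, Gdf15 at 4.43 and 5.32 against 6.84 and 6.69 CPM, and Cdkn1a (p21) overlapped at 659 and 779 against 774 and 755 CPM.

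Among metabolic and growth lists, glycolysis had 1 higher and 3 lower of 21, with a median of 0.04 (from -0.08 without CaP Zn replicate 1 to 0.15 without CaP Zn replicate 2), and with Hk2 (hexokinase 2) at 109 and 106 CPM on CaP Zn and 85.1 and 93.3 CPM on CaP Zn0.8Mn0.1Li. Of 20 hypoxia targets, 1 was higher and 5 lower, with a median of -0.07 (from -0.14 without CaP Zn replicate 1 to 0.07 without CaP Zn replicate 2), and with Bnip3 at 124 and 130 against 106 and 104 CPM and Car9 at 11.2 and 12.3 against 7.69 and 10.0 CPM. Cholesterol synthesis had 5 higher and 0 lower of 24, with a median of 0.05 (from 0.0051 without CaP Zn replicate 1 to 0.11 without CaP Zn replicate 2). Mitosis and G2 genes had 0 higher and 3 lower of 25, with a median of -0.12 (from 0.04 without CaP Zn replicate 1 to -0.25 without CaP Zn replicate 2), and Nusap1 was at 52.3 and 33.0 against 24.7 and 31.2 CPM. In the lipid list, Fabp4 was at 5.02 and 3.85 against 6.12 and 7.67 CPM and Fabp5 at 279 and 328 against 373 and 373 CPM. The medians of 12 lists, all between 0.00286 and 0.042, turned negative with library totals alone in place of TMM, among them those of ZIP importers, manganese, lithium, osteoclast, bone factor, glycolysis and unfolded protein response genes, and none of the 26 lists with a median of at least 0.05 in size did.

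Gene length and gene class also went with the direction. When the tested genes were split into 5 classes of equal size by length, in the shortest class (45 to 1887 bases), 61.5% were above 0, with 21.7% higher and 11.1% lower in both libraries, and in the longest class (6977 to 123179 bases) 42.7% were above 0, with 13% higher and 21% lower. CaP Zn replicate 1 was the library that stood out, with a median of -0.08 from the mean log2 CPM of the 4 libraries in the shortest class, and the other 3 lay between 0.02 and 0.06. The shortest class's median log2 fold change was 0.06 with all libraries, 0.01 without CaP Zn replicate 1 and 0.11 without CaP Zn replicate 2. Its part in the results for ribosomal, respiratory chain and other short genes was not tested.

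Gene classes differed in their shares, and the difference between classes was not tested. Protein-coding genes had 15.8% higher and 17.7% lower of 10842, and bidirectional promoter RNAs 22.6% in each direction of 31. Antisense RNAs had 79 higher and 25 lower of 294, with a median of 0.13 (0.11 to 0.19 with a library left out), sense intronic RNAs 15 and 4 of 42 with a median of 0.33 (0.10 without CaP Zn replicate 1), and small nucleolar RNAs 15 and 2 of 34 with a median of 0.30 (0.56 without CaP Zn replicate 2). Most small nucleolar RNAs lie in introns of other genes, and antisense RNAs overlap genes of the other strand, so their reads cannot be told from those of the host or partner without strand.

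**Figure D4:**
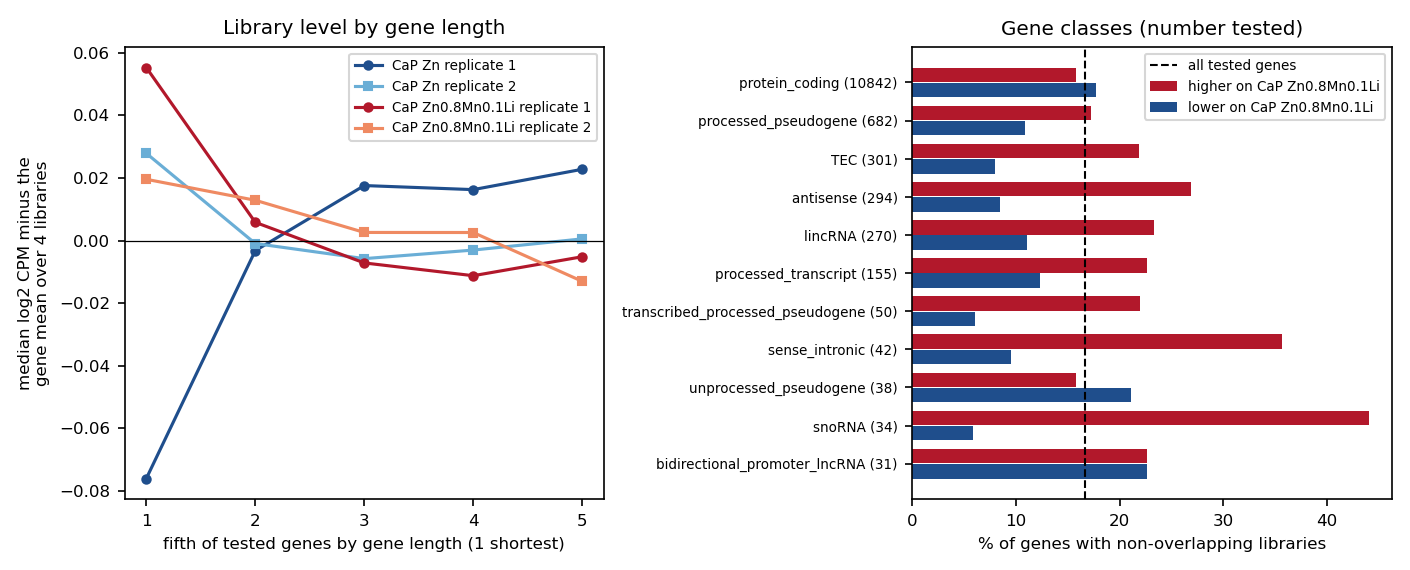
Left, median over genes of log2 CPM minus the gene's mean of the 4 libraries, for 5 classes of the tested genes by gene length, each line a library. Right, percent of genes of each class (at least 30 tested, number in brackets) with non-overlapping libraries, red higher and blue lower on CaP Zn0.8Mn0.1Li, with the dashed line at 16.7% for all tested genes. CaP Zn replicate 1 was at -0.08 in the shortest class, and small nucleolar RNAs had the highest red bar at 44.1%.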

How the data were processed

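RNA of RAW 264.7 cells was sequenced by the submitters using the TruSeq RNA kit that the labels' protocols name. The authors deposited read counts per gene as whole numbers without normalization, and FPKM values, which divide by gene length and library total. Aligner and counter: not given in the sources used here, like any filter. The build mm9 is named per the submitters' processing notes, but 12325 of 12815 tested genes found in GENCODE M21 (96.2%) have the positions of GRCm38, so positions are printed as GRCm38.

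Groups came from the treatment labels. Genes kept by filterByExpr (12835 of 54532) were tested with edgeR 4.0.16 in R 4.3.3 (TMM, robust quasi-likelihood, two-sided, adjusted p under 0.05) on the 4 libraries, without a covariate. DESeq2 1.42.0, limma 3.58.1 and other settings were alternatives. The procedure was tested on simulated data. Floors of 3 counts cover counting error only, since reads carry no molecular identifiers. The CaP Zn0.8Mn libraries of the same tables entered only alternatives that share their spread.

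The members and the 51 gene lists (889 of 1057 listed genes found were tested) were chosen with earlier results of these data known. The text names genes called by edgeR, the 15 higher and 15 lower genes of at least 5 mean CPM with the largest gap (smallest log2 difference between libraries of the groups, prior count 1), up to 4 non-overlapping members of at least 1 CPM per list by log2 fold change, and 34 genes whatever their result. Mtf1, Neat1, Vmp1, Gm28438, Gbp7, S100a8, mt-Co1, mt-Nd5, mt-Nd6, and genes named beside promoters were chosen after their values were seen. So were Clec4d, Clec4e, Tyrobp, Tlr2, Tlr4, Tirap, Arg1, Ccl22, Mrc1, Chil3, Retnla and Il10. Promoters are from RefSeq, GRCm38.p6, and 250 bases before each start were searched.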

Additional observations from a re-analysis of the deposited data

How the results depend on the processing

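With 2 libraries an alloy, 2 residual degrees of freedom and totals of 15874516 to 17709290 counts, small differences could not be called, and an unmet threshold does not show equal levels. The count of genes at an adjusted p under 0.05, 0 here, was also 0 with RLE size factors, library totals, limma-voom, a mean count of at least 100, a spread shared over all 6 libraries, a 2-fold minimum, both FPKM fits and mitochondrial genes left out. It was 12 with DESeq2, 3 without robust squeezing, 51 without a filter, 1 (Csf3) with the spread shared over 5 libraries and 16 to 440 with a library left out (440 without CaP Zn replicate 2), where the lone library is assumed to vary like the other pair. The cause was not tested. Same-numbered libraries deviated from their group means with a correlation of -0.173 over all tested genes. Among genes with a mean of at least 5 CPM it was -0.313. With 2 libraries an alloy and genes that are not independent, this cannot show whether the numbers pair the samples. The replicate block called 8 genes. A crossed pairing as a block, chosen after seeing the data, called 213.

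Genes without overlap numbered 4124 to 4870 higher and 4146 to 4963 lower with a library left out, since a lone library separates more easily, and 3082 higher and 3357 lower without a filter, which kept more genes. Of the log2 fold changes of 191 named genes, those of Slc30a1 (-0.0348 with library totals, -0.0016 without a filter), Nos2, Il1b, Ptgs2, Acp5, Cdkn1a, Vegfa and Osm changed sign. With a library left out they ran from -0.11 to 0.11 for Slc30a1, -0.0648 to 0.01 for Nos2, -0.12 to 0.38 for Il1b, -0.16 to 0.0456 for Ptgs2, -0.29 to 0.19 for Acp5, -0.0295 to 0.21 for Cdkn1a, -0.10 to 0.21 for Vegfa and -0.26 to 0.27 for Osm. Osm also read 0.0244 with limma-voom, 0.00338 with the replicate block, and 0.00388 and 0.00674 with FPKM. Of all list medians and settings, 84 values moved by more than the spread between libraries and 707 did not.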
